A study of Mus musculus with 8 samples.

Results

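Respiratory complex I is followed here through every protein-coding mouse gene whose symbol starts with Nduf. The rule found 46 such genes among 55487 rows, 38 for subunits and 8 for assembly factors (symbols starting with Ndufaf), on 17 chromosomes. The 38 include Ndufa4, now placed in complex IV, and its paralogue Ndufa4l2. All 46 had enough reads to be tested, as did 13648 genes in all. The 8 libraries are polyadenylated RNA from hearts of db/db mice, a strain with a mutated leptin receptor that becomes obese and diabetic: 4 from mice given vehicle and 4 from mice given DIZE, read here as the antiprotozoal diminazene aceturate. The title of the series presents the treatment as a drug activation of angiotensin-converting enzyme 2 that lessens oxidative stress in diabetic heart disease. Every library thus comes from diabetic mice, and no lean heart is among them. The sources used here give no age, sex, dose or duration, nor whether each library is a separate animal. The p-values therefore measure the spread between these samples, which may be technical.

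Complex I is the entry point of electrons from NADH into the respiratory chain. A peripheral arm in the mitochondrial matrix carries the flavin and the iron-sulfur clusters that pass electrons to ubiquinone, and a membrane arm pumps protons. A few core subunits do this chemistry, some encoded in the nucleus and the rest in mitochondrial DNA, while many accessory subunits surround them. Assembly factors build the complex in steps and do not stay in it. The heart, which lives largely on oxidative phosphorylation, makes much of it, and complex I is known as a site where superoxide can form.

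Levels are given as CPM, counts scaled to a library's reads in tested genes with its TMM factor. Total counts ran from 7447664 to 10161623 per library, and a member's count in a library from 60 to 12111. Of the 46 members, 41 had a mean above the median of all tested genes. Markers of ventricular cardiomyocytes (Myh6, Myl2, Tnnt2 and 5 others) summed to 40726 to 48855 CPM in 7 libraries and to 28885 CPM in vehicle 1. That low sum came mainly from Myh6 (8858 CPM against 15570 to 20810 CPM elsewhere), Actc1, Ryr2 and Ttn. Myl2, Tnni3 and Pln in vehicle 1 lay within the range of the other libraries, and Tnnt2 just below it. Vehicle 1 also held 726 CPM of the atrial markers Myl7, Myl4 and Sln, where the others held 2.63 to 271, and vehicle 2 held 1643 CPM of liver markers against at most 8.73 elsewhere. Erythroid markers summed to 101 to 210 CPM in vehicle and 8.95 to 78.4 CPM in DIZE. Markers of smooth muscle and pericytes summed to 1089 to 1527 CPM in vehicle and 1134 to 1204 CPM in DIZE, and those of macrophages to 304 to 492 and 291 to 315 CPM. Fibroblast markers summed to 1253 to 2067 and 1119 to 1512 CPM, and endothelial markers to 1288 to 2017 and 1196 to 1732 CPM. Adipocyte markers stayed at or under 7.80 CPM and those of skeletal muscle at or under 0.202 CPM. In whole heart, fewer cells of a type and less RNA per cell cannot be told apart.

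Some of the members hold the same short run of letters just after their starts, which the choice by name did not use. RefSeq promoters of GRCm38.p6, 250 bases before to 50 after each start, were found for 40 of the 46 genes. The letters AAGATGGC, on either strand, are the core bound by YY1, a zinc finger factor of many nuclear genes for mitochondrial proteins. They were in the promoters of 8 of the 40 (20%), against 5.1% of 10159 tested genes with a promoter and 3.2% of all 27025 genes with one. In all 8 they read in the direction of transcription and began 11 to 39 bases after the start. That range was taken from these 8 genes, so all 8 lie in it by construction. Of the 565 matches in tested genes, 205 (36.3%) read that way within it. A further share of those matches read the same way elsewhere after the start, for 43.4% in all. The 30 bases around each match are given on the gene's strand, 5′ to 3′, with these letters in capitals.

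Ndufa3 (chr7:3617384-3617413, plus strand): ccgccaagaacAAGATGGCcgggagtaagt
Ndufa9 (chr6:126849097-126849126, minus strand): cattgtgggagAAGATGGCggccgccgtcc
Ndufb8 (chr19:44555393-44555422, minus strand): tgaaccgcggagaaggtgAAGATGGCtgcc
Ndufc1 (chr3:51408915-51408944, minus strand): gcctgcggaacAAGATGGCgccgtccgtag
Ndufs4 (chr13:114388045-114388074, minus strand): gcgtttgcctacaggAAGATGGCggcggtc
Ndufs6 (chr13:73328433-73328462, minus strand): aagggtcaccggcAAGATGGCggcggtgct
Ndufs7 (chr10:80249462-80249491, plus strand): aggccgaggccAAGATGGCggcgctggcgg
Ndufaf8 (chr11:120098933-120098962, plus strand): aggcagggcccAAGATGGCggcgccctcga

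The same letters hold an ATG, and in 7 of the 8 genes, all but Ndufaf8, it is an annotated start codon in GENCODE M21. Among matches after the start in tested genes, 155 of 245 (63.3%) were. A site for the factor and a coding start therefore cannot be told apart from the letters. The 8 genes had log2 fold changes (DIZE minus vehicle) from -0.27 to 0.10, with a median of -0.08 and 6 below 0, and the other 32 genes with a promoter had a median of -0.02 and 16 below 0. Yy1 itself was at 66.8 ± 7.83 CPM in vehicle and 64.4 ± 4.66 CPM in DIZE (SD, n = 4 each).

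The letters GCGCATGCG, on either strand, are the core bound by NRF1, nuclear respiratory factor 1. They were in 4 of the 40 promoters (10%), against 4.0% of tested genes and 2.0% of all genes with a promoter. In Ndufa11, Ndufaf4 and Ndufaf5 they overlap on both strands as a palindrome. Ndufa8 and Ndufaf4 are shown as examples, with the letters in capitals.

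Ndufa8 (chr2:36049329-36049358, minus strand): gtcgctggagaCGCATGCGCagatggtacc
Ndufaf4 (chr4:24897960-24897989, plus strand): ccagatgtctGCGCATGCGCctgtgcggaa

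For the other letters, searched on both strands, the order depended on the background, except for TCAAGGTCA, which was rare in both backgrounds. The letters CCGGAAG, bound by ETS factors such as GABP, was in 15% of members, 19.4% of tested genes and 9.9% of all genes with a promoter. GGGCGG, bound by SP1, was in 52.5%, 67.9% and 38.2%. TCAAGGTCA, bound by the estrogen-related receptors, was in 0 of the 40, 0.3% of tested genes and 0.5% of all. At such low shares, 0 of 40 genes says little about the members. TATAAA was in 10%, 9.2% and 15.7%. A match is only a run of letters in this window.

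The comparison of DIZE with vehicle asked whether treatment came with other levels of complex I messages. In the quasi-likelihood test of edgeR, adjusted over all tested genes by the Benjamini-Hochberg method, 0 of the 46 members passed the threshold of 0.05, where 5 of 13648 genes did (0.0366%). No member had an unadjusted p under 0.05 either, a mark that 19.4% of tested genes reached. DESeq2 also called 0 members where it called 606 of all tested genes (4.44%), and limma-voom 0 where it called 4 (0.0293%). In every member the ranges of the 2 groups overlapped, whereas they did not overlap in 12.4% of tested genes. The smallest adjusted p of a member was 0.318.

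In the edgeR fit the intervals around these differences were narrow. Log2 fold changes ran from -0.27 for Ndufaf8 to 0.21 for Ndufv1, with a median of -0.05 beside -0.01 over all tested genes, and 21 members were above 0 and 25 below. The 95% interval lay within a 1.5-fold change in either direction for 44 of the 46 members, all but Ndufa4l2 and Ndufaf8, and within 2-fold for all of them. Among 9633 tested genes with means in the members' own range of CPM, 5882 had such a 1.5-fold interval. Those genes shared the range but not the level: their median was 37.2 CPM, beside 208 CPM for members. The median coefficient of variation within a group was 9.33% for members and 14.2% for those 9633 genes.

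**Figure D1:**
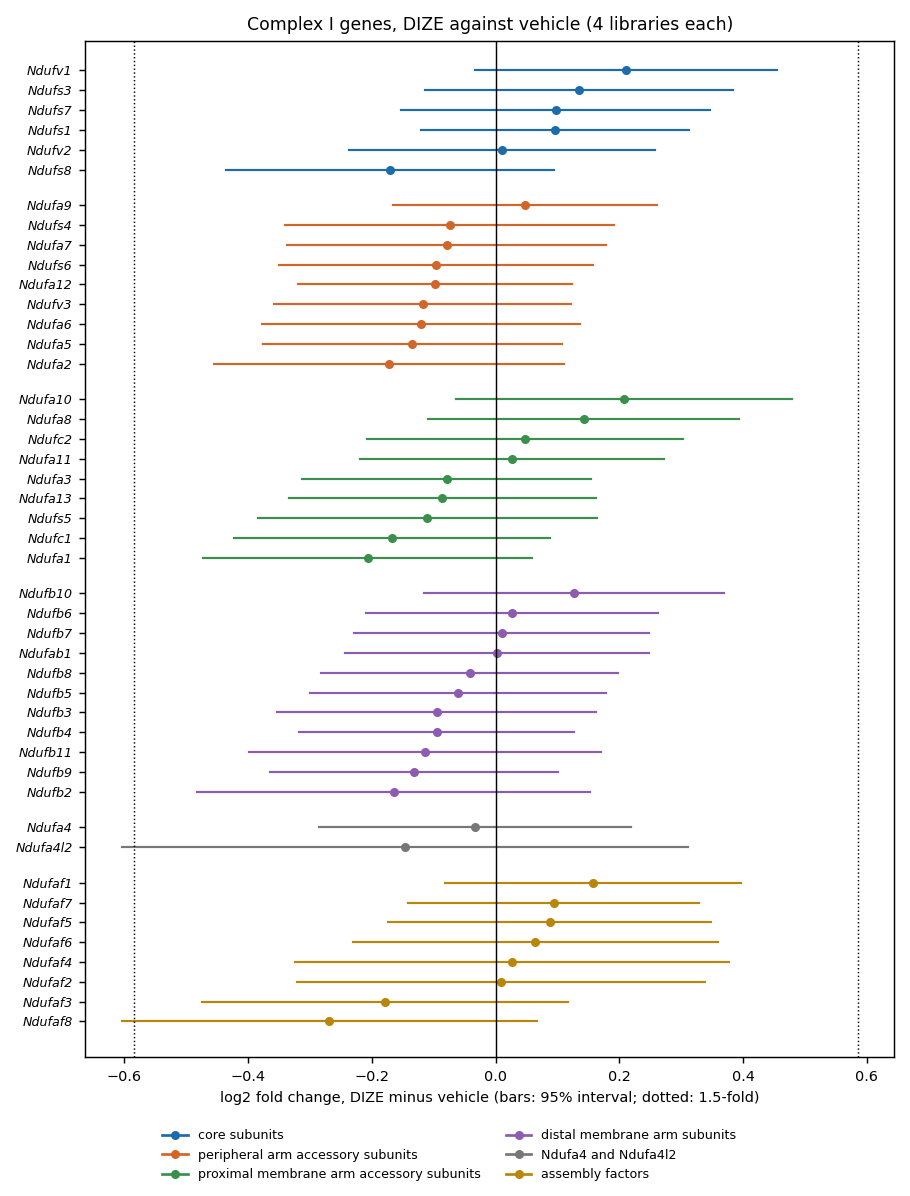
Log2 fold change of each of 45 members, DIZE minus vehicle, from edgeR (points), with 95% intervals (lines) and dotted lines at a 1.5-fold change in either direction, colored by role. Every interval spans 0, and those of Ndufa4l2 and Ndufaf8 reach past the dotted line.

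The 7 core subunits encoded in the nucleus bind the cofactors or hold the arm together, among them Ndufv1 with the flavin, Ndufs1 with several iron-sulfur clusters and Ndufs7 at the end of the cluster chain, next to ubiquinone. For 6 of the 7 the estimate was above 0, and the group's median log2 fold change was 0.10. Under the 20 alternatives 5 or 6 of the 7 were above 0. Their summed level was 4267 ± 367 CPM in vehicle and 4556 ± 159.5 CPM in DIZE (SD, n = 4 each).

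Ndufv1 (chr19:4007384-4012806), which holds the site where NADH is oxidized, had 823, 1036, 799 and 836 CPM in vehicle 1 to 4. In DIZE 1 to 4 it had 1012, 1008, 1070.5 and 952 CPM. Vehicle 2 lay inside the DIZE range and the other vehicle libraries below it. The log2 fold change was 0.21 ± 0.11 (SE) and did not pass (edgeR adjusted p = 0.318). With a trend on GC content and length removed it was 0.09. Ndufs8, which carries a pair of iron-sulfur clusters, was the core subunit with an estimate below 0. It had 289, 286, 238 and 227 CPM in vehicle and 225, 206, 256 and 235 CPM in DIZE (log2 fold change -0.17 ± 0.12, adjusted p = 0.453 in edgeR). Vehicle 1 and 2 were above every DIZE library, and vehicle 3 and 4 among them. Ndufs1, the largest core subunit, had 765, 882, 761 and 854 CPM in vehicle and 897, 900.4, 860.5 and 830.4 CPM in DIZE. The groups overlapped, with a log2 fold change of 0.10 ± 0.10. Ndufs3, Ndufs7 and Ndufv2 had log2 fold changes of 0.13, 0.10 and 0.01.

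**Figure D2:**
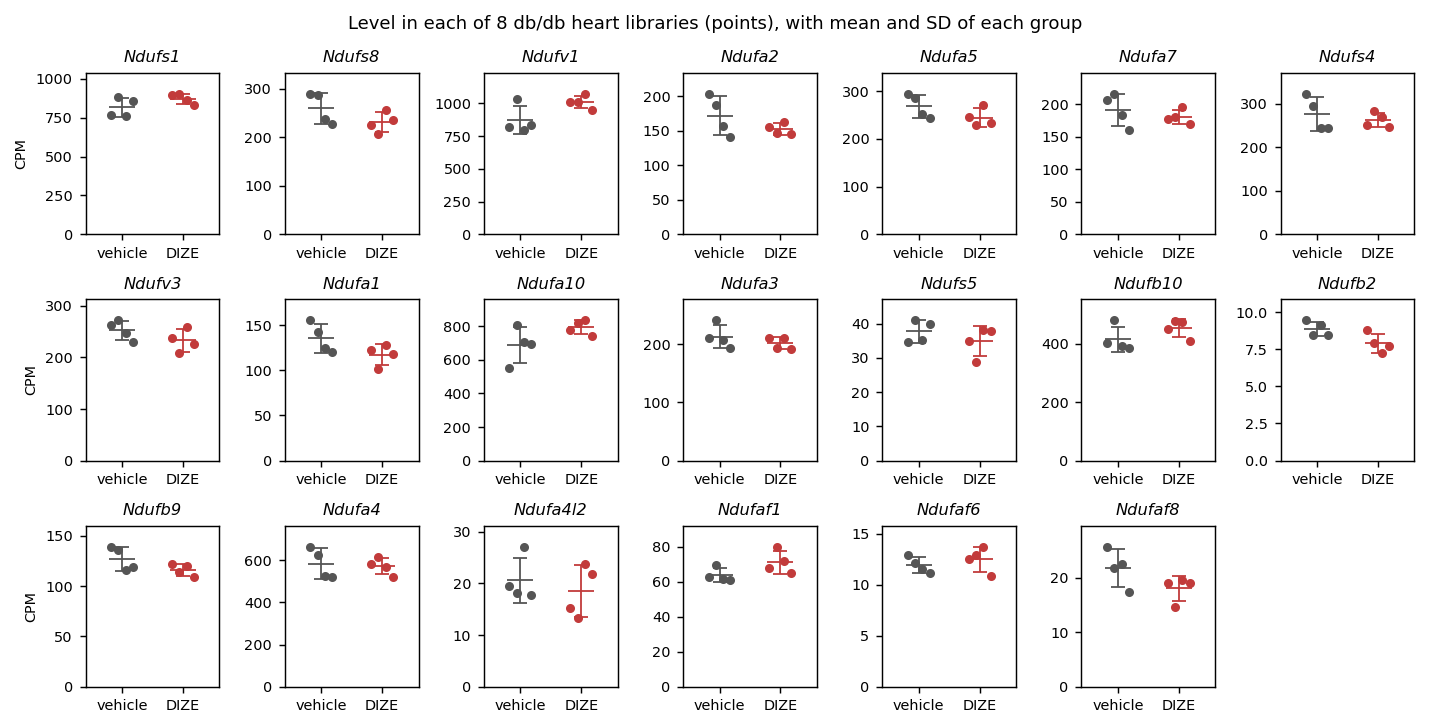
CPM in each library (points; vehicle gray, DIZE red) of 20 members, with the mean and SD of each group of 4. In every panel the groups overlap; Ndufv1 has 3 vehicle points from 799 to 836 CPM and vehicle 2 at 1036 CPM among the DIZE points.

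The estimates of the 9 accessory subunits of the peripheral arm were mostly below 0. These subunits are Ndufa2, Ndufa5, Ndufa6, Ndufa7, Ndufa9, Ndufa12, Ndufs4, Ndufs6 and Ndufv3, of which Ndufs4 and Ndufs6 are needed late in the making of the arm and Ndufa9 sits at its junction with the membrane. The estimate was below 0 for 8 of the 9, with a median of -0.10, and once a trend on transcript GC content and length was removed from each library it was below 0 for 4 of 9 with a median of 0.003. Ndufa2 had 203, 187, 156 and 140.5 CPM in vehicle and 155, 146, 163 and 145 CPM in DIZE (log2 -0.17 ± 0.13). Ndufa5 had 293, 285, 252 and 244 CPM in vehicle and 246, 228, 272 and 233 CPM in DIZE (log2 -0.13 ± 0.11). Vehicle 1 and 2 lay above every DIZE library in both genes, and vehicle 3 and 4 within the DIZE range or just below it.

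Ndufs4, whose loss in mice gives a form of Leigh-like disease, showed the same order within vehicle. It had 322, 296, 244 and 244 CPM in vehicle and 252, 283, 269.6 and 246 CPM in DIZE. The log2 fold change was -0.07 ± 0.12 and the adjusted p 0.768 (edgeR). Ndufa7 had 205, 215, 183 and 160.2 CPM in vehicle and 177, 181, 195 and 169 CPM in DIZE, all DIZE values inside the vehicle range. Ndufv3, a small subunit next to the flavin site, had 263, 272, 247 and 229 CPM in vehicle and 238, 208, 259 and 226 CPM in DIZE. The others, Ndufa6, Ndufa9, Ndufa12 and Ndufs6, ranged from -0.12 for Ndufa6 to 0.05 for Ndufa9 in log2 fold change.

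The ratio of the core to these accessory subunits, by summed CPM, does not depend on how a library was scaled. It was chosen after the values were seen and has no test. In vehicle 1 to 4 it was 1.71, 1.99, 1.91 and 1.99, against 2.14, 2.17, 2.09 and 2.15 for DIZE 1 to 4, so the groups did not overlap. With the GC and length trend removed it was 1.91, 2.05, 1.92 and 1.98 in vehicle and 2.09, 2.07, 2.03 and 2.06 in DIZE, and vehicle 2 then lay above DIZE 3. The difference between the medians of both groups in log2 fold change was 0.19. It was 0.11 without vehicle 1, the library with the lowest summed level of cardiomyocyte markers. With the trend removed it was 0.08. Across the 38 subunits the log2 fold change went with mean CPM (Spearman's rho 0.61, and 0.31 with the trend removed). Over all tested genes rho was 0.18 and 0.19. The core subunits had a median level of 505 CPM and the peripheral arm accessory subunits 236 CPM. The part of level and of the library properties above in the ratio was not tested further.

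**Figure D3:**
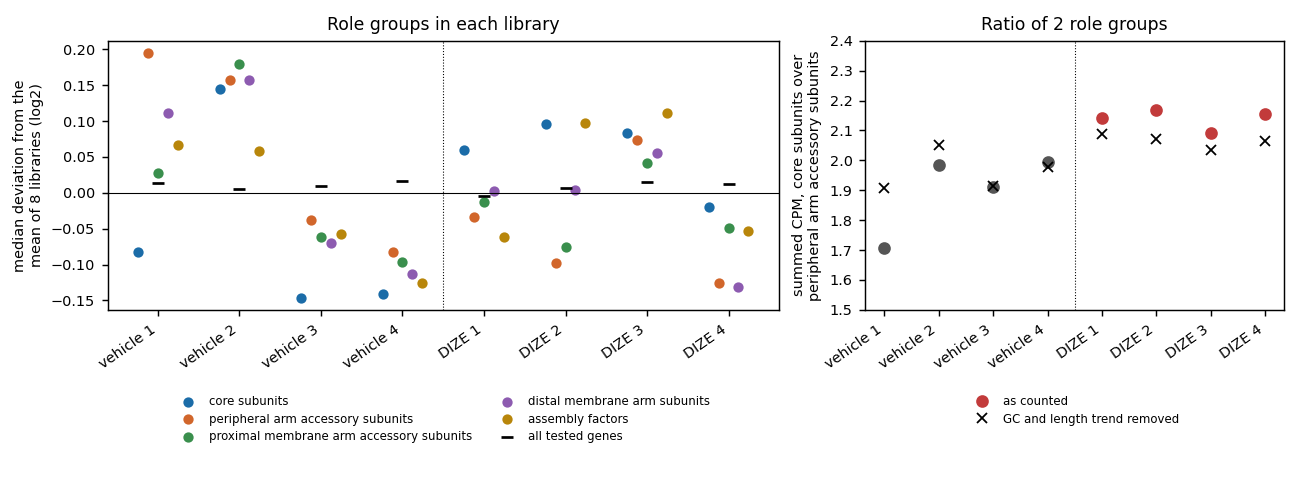
Left, each library's median log2 deviation from the mean of the 8 libraries over the genes of a role group (colored points) and over all tested genes (black dashes); right, summed CPM of the core subunits over that of the peripheral arm accessory subunits, as counted (gray vehicle, red DIZE) and with the GC and length trend removed (crosses). As counted, the ratio was 1.71 to 1.99 in vehicle and 2.09 to 2.17 in DIZE, and core and accessory subunits lie farthest apart in vehicle 1.

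The 9 accessory subunits of the proximal membrane arm split 4 above and 5 below 0, with a median of -0.08, and with the trend removed 8 were above 0 with a median of 0.09. Without vehicle 2 the median was -0.01. They are Ndufa1, Ndufa3, Ndufa8, Ndufa10, Ndufa11, Ndufa13, Ndufc1, Ndufc2 and Ndufs5. Ndufa10, related to nucleoside kinases, had 551, 808, 706 and 694 CPM in vehicle and 780.4, 823, 835 and 745 CPM in DIZE. Vehicle 1 was the lowest of the 8 and vehicle 2 lay inside the DIZE range. The log2 fold change was 0.21 ± 0.12 (edgeR adjusted p = 0.374), and 0.11 without vehicle 1. Ndufa1, a small X-linked subunit needed for assembly, had 155, 142, 124 and 120.5 CPM in vehicle and 122, 102, 128 and 118 CPM in DIZE (log2 fold change -0.21 ± 0.12, adjusted p = 0.365 in edgeR). Here vehicle 1 and 2 were the highest and DIZE 2 the lowest, with the rest between 118 and 128 CPM. Ndufa3 had 211, 241, 206 and 193 CPM in vehicle and 211, 194, 209.9 and 191 CPM in DIZE, with wide overlap. Ndufa8, Ndufa11 and Ndufc2 had estimates above 0, up to 0.14 for Ndufa8. Ndufa13 and Ndufc1 had log2 fold changes of -0.09 and -0.17.

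Ndufs5 had 34.6, 40.9, 35.3 and 40.02 CPM in vehicle and 34.8, 28.8, 38.0 and 37.9 CPM in DIZE (log2 -0.11 ± 0.12). Its level is uncertain, since 19.8% of its 100-base stretches are also in BC002163, annotated as a processed pseudogene, which had 103 to 130.4 CPM in vehicle and 101 to 122 CPM in DIZE. The sources used here do not say how reads that match both were assigned. Shared stretches were also 28.2% of Ndufb6, 24.0% of Ndufa13, 19.9% of Ndufs3 and 17.7% of Ndufa12, among others. The gene that shared them had at most 243 counts over all libraries in each of these cases. Some members overlap exons on the opposite strand, such as Ndufb5 with Mrpl47 over 616 bases, and the strand use of the counting is not given.

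The 11 members placed in the distal membrane arm are Ndufb2 to Ndufb11 with the acyl carrier protein Ndufab1. Ndufb1-ps, not protein-coding in GENCODE M21, is described at the end. The 11 had 4 estimates above 0 and 7 below, with a median of -0.06. With the trend removed 6 were above and 5 below, with a median of 0.005. Without DIZE 4 the median was -0.01. Ndufb10, an intermembrane-space subunit, had 403, 481, 392 and 386 CPM in vehicle and 449.8, 480.4, 474 and 411 CPM in DIZE. Vehicle 2 was the highest library and the other vehicle libraries lay below all of DIZE (log2 0.13 ± 0.11). Ndufb9 had 139, 136, 116 and 119 CPM in vehicle and 122, 114, 120.1 and 109 CPM in DIZE, with vehicle 1 and 2 above all of DIZE (log2 -0.13 ± 0.11). Ndufb2 had only 9.44, 8.46, 9.12 and 8.44 CPM in vehicle and 8.79, 7.89, 7.28 and 7.70 CPM in DIZE. It shares 145 bases of exon on the same strand with the read-through gene Gm42420, listed at 0 counts, and its 595 counts over all libraries may not stand for its full level. Ndufb8 and Ndufb9 also share exon bases on the same strand with a gene at 0 counts. Ndufb3, Ndufb4, Ndufb5, Ndufb6, Ndufb7, Ndufb8, Ndufb11 and Ndufab1 had log2 fold changes from -0.11 for Ndufb11 to 0.03 for Ndufb6. Of the 100-base stretches of Ndufb4, 33.4% are shared with the pseudogene Ndufb4c, which had 66 counts in all.

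Ndufa4 and its paralogue Ndufa4l2 carry the family name, though Ndufa4 is now placed in complex IV. Ndufa4 had 665, 626, 524 and 522 CPM in vehicle and 582, 613, 566 and 522 CPM in DIZE (log2 -0.03 ± 0.12). Ndufa4l2, known as a gene induced by low oxygen, had 19.5, 18.1, 27.1 and 17.7 CPM in vehicle and 15.1, 13.3, 23.6 and 21.8 CPM in DIZE. Its 95% interval was the widest among members, at -0.60 to 0.31 in log2 (edgeR adjusted p = 0.729).

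Of the 8 assembly factors, 6 had estimates above 0 and 2 below, with a median of 0.05. Ndufaf1, which helps build the membrane arm, had 63.0, 69.9, 61.5 and 60.9 CPM in vehicle and 67.6, 80.1, 72.2 and 64.8 CPM in DIZE. All 4 DIZE libraries were above 3 of the vehicle libraries, and vehicle 2 lay among them (log2 0.16 ± 0.11, edgeR adjusted p = 0.446). Ndufaf8 had 25.7, 21.7, 22.4 and 17.3 CPM in vehicle and 18.9, 14.6, 19.6 and 18.9 CPM in DIZE (log2 fold change -0.27 ± 0.15, adjusted p = 0.352 in edgeR). Vehicle 4 was below 3 of the DIZE libraries, and DIZE 2 was the lowest of all. Ndufaf6 had 12.9, 12.2, 11.5 and 11.2 CPM in vehicle and 12.6, 12.9, 13.7 and 10.8 CPM in DIZE, nearly the same range. Ndufaf2, Ndufaf4, Ndufaf5 and Ndufaf7 lay between 0.01 and 0.09, and Ndufaf3, the other with an estimate below 0, at -0.18.

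Summed over genes, the subunits came to 1.06% to 1.26% of a library's reads in tested genes as scaled by its TMM factor, which is not the raw share. In vehicle 1 to 4 they came to 11641, 12619, 10662 and 10600 CPM, against 11627, 11611, 12138 and 10938 CPM for DIZE 1 to 4. The vehicle libraries spanned the DIZE range on both sides, vehicle 2 being the highest of all and vehicle 4 the lowest. Ndufa4 and Ndufa4l2 together made up 539 to 684 CPM of these sums in vehicle and 544 to 627 CPM in DIZE. The assembly factors came to 284 ± 15.02 CPM in vehicle and 291 ± 25.7 CPM in DIZE (SD, n = 4 each). Many members were highest or lowest in the same library: vehicle 1 or vehicle 2 was the highest vehicle library in 21 and 24 members, and vehicle 4 the lowest in 29. In DIZE, library 3 was the highest in 26 and library 4 the lowest in 27.

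Levels of different genes are compared per kilobase of merged exons. Ndufa4 was the highest at 925 CPM per kb. Ndufb10 at 594, Ndufv1 at 531 and Ndufb7 at 452 CPM per kb were also among the highest. The assembly factors lay between 11.3 CPM per kb for Ndufaf6 and 45.6 CPM per kb for Ndufaf1, below all subunits but Ndufs5, Ndufab1, Ndufa4l2 and Ndufb2. The order depends on the transcripts taken for the length: Ndufb8 had 104 CPM per kb by merged exons and 357 CPM per kb by its principal transcript.

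**Figure D4:**
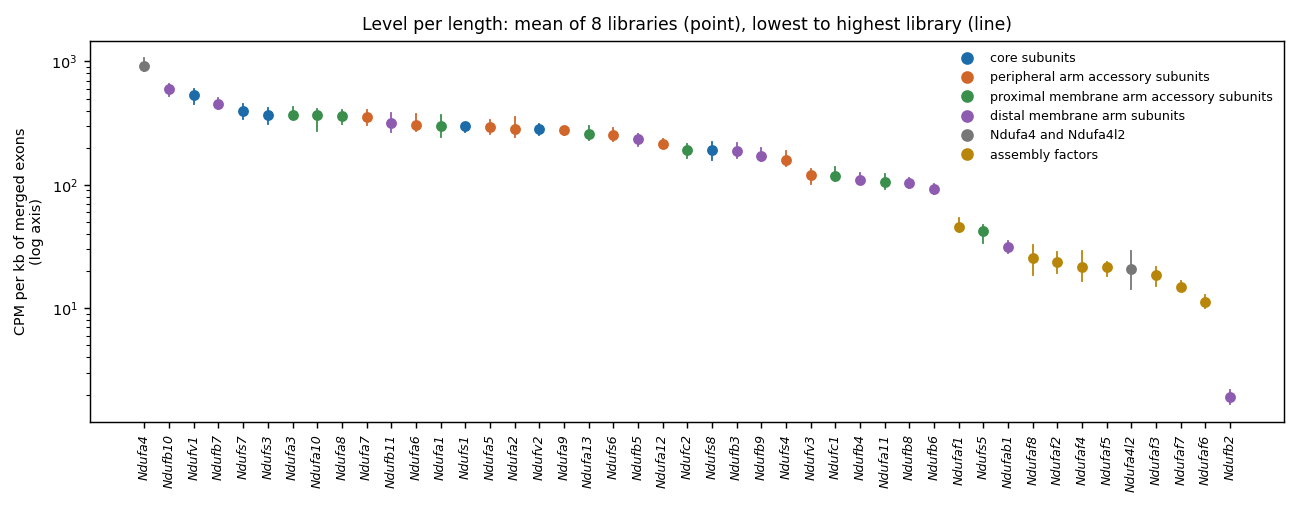
CPM per kilobase of merged exons on a log axis, as the mean of the 8 libraries (points) with the lowest and highest library (lines), colored by role. Ndufa4 stands highest at 925 CPM per kb, and the assembly factors lie from 11.3 to 45.6 CPM per kb.

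The members are short transcripts, with a median of 977 bases beside 2960.5 for all tested genes, and a median GC content of 51.6% beside 50.2%. Over all tested genes the log2 fold change went with GC content (Spearman's rho 0.40 over 13638 genes), while over the 46 members rho was -0.07. These are correlations across genes of the same libraries and carry no test. After removal of each library's trend, 31 members were above 0, with a median of 0.07 beside 0.02 for all tested genes, and rho with GC content was -0.02 over all genes and -0.64 over members. Under that correction 8 members had an unadjusted p under 0.05, as did 18.8% of all tested genes. None passed (smallest edgeR adjusted p = 0.173), where 14 of all tested genes did (0.103%). Among members under 1000 bases, 8 of 24 were above 0 as counted, beside 309 of 1117 of all such genes. For longer members it was 13 of 22, beside 6263 of 12521. With the trend removed, 14 of the 24 shorter and 17 of the 22 longer members were above 0.

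**Figure D5:**
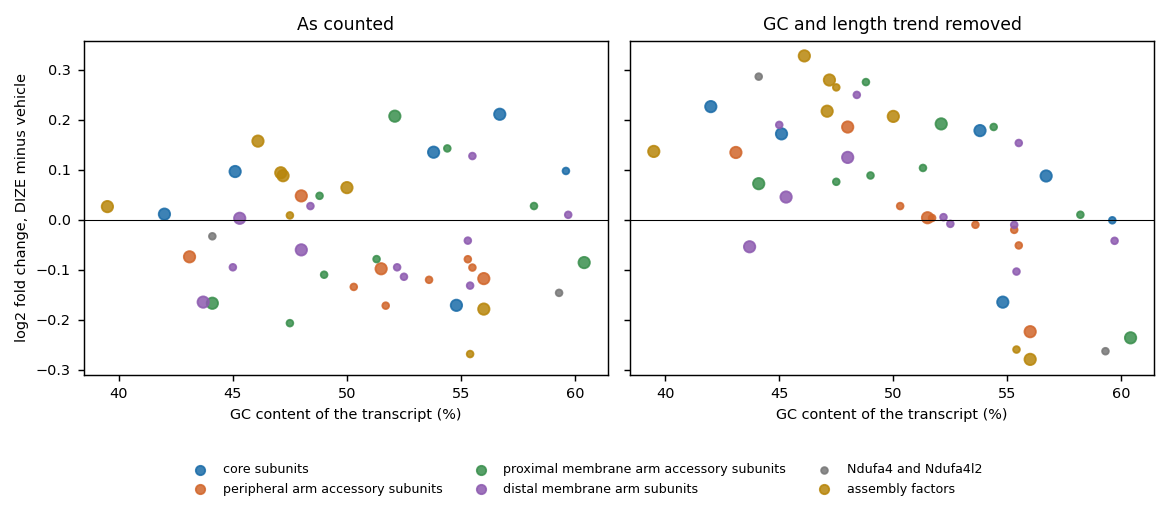
Log2 fold change of 45 members against the GC content of its transcript, as counted (left) and after that trend was removed from each library (right); small points are transcripts under 1000 bases, colors are roles. Spearman's rho over all 46 members is -0.07 as counted and -0.64 after the correction.

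The other genes of the complex and its neighbors were read from lists in the same fit. The 7 mitochondrially encoded subunits, mt-Nd1 to mt-Nd6 with mt-Nd4l, had estimates below 0, from -0.29 for mt-Nd3 to -0.06 for mt-Nd6 with a median of -0.11, and 0 passed. With the GC and length trend removed, all 7 were above 0, with a median of 0.19. Means of the 7 over all libraries ran from 58.6 CPM for mt-Nd3 to 15100 CPM for mt-Nd5, with a median of 7568 CPM. The level of mt-Nd3 was 52.0 to 73.1 CPM in vehicle and 48.4 to 54.7 CPM in DIZE (edgeR adjusted p = 0.241). Since the libraries were made from polyadenylated RNA, mitochondrial messages were counted only as far as that selection kept them. Of 12 assembly factors with other names, 11 were in the table and tested, 8 above 0 and 3 below. Nubpl, which delivers iron-sulfur clusters, was at -0.20 ± 0.13 and Ecsit at 0.19 ± 0.12.

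Of 8 other enzyme genes whose products reduce ubiquinone, 5 were above 0, among them Dhodh at 0.27 ± 0.13 and Sdha at 0.21 ± 0.10, and 0 passed. Of 13 genes of ubiquinone synthesis, 11 were above 0, with a median of 0.11, and 0 passed. With the GC and length trend removed 9 were above 0, with a median of 0.04. Groups did not overlap in 1 of the 13, Coq5, and in 12.4% of all tested genes. Coq5, a methyltransferase of that pathway, had 186 to 216 CPM in vehicle and 219 to 259 CPM in DIZE with no overlap (log2 0.29 ± 0.11, edgeR adjusted p = 0.185). Coq10b, a lipid-binding protein for ubiquinone, had 66.6 to 95.9 CPM in vehicle and 41.7 to 68.8 CPM in DIZE (log2 fold change -0.56 ± 0.17, adjusted p = 0.140 in edgeR).

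Of 8 regulators of nuclear respiratory genes, 4 were above 0 and 4 below, with a median of 0.009, and 0 passed. With the GC and length trend removed 6 were above 0, with a median of 0.068. Esrra, the estrogen-related receptor alpha, had the smallest p of the 8. Its level was 109, 139.5, 134 and 124 CPM in vehicle and 185, 175, 180.3 and 161 CPM in DIZE, all DIZE libraries above all of vehicle. The log2 fold change was 0.47 ± 0.11 and did not pass (edgeR adjusted p = 0.0955). Groups did not overlap in 1 of the 8 regulators and in 12.4% of all tested genes. Ppargc1b was at -0.24 ± 0.17 with overlapping groups. Nuclear subunits of complexes II to V, of which 46 of 49 were tested, had 19 estimates above 0 and 27 below with a median of -0.06, and 0 passed. With the trend removed 29 were above 0, with a median of 0.10.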

How the data were processed

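Hearts of db/db mice gave 8 libraries, 4 per treatment in the labels. The authors deposited raw counts, whole reads per Ensembl gene. Per the submitters' processing notes, STAR 2.7.3, HTSeq 0.6.1p1, edgeR and R 4.1 were used with build mm10; the sources used here give no settings, annotation release or strand use. Per the labels' protocols the kit was a stranded mRNA kit.

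CPM, log2 fold changes and tests were computed here. The main test was edgeR 4.0.16 (R 4.3.3) quasi-likelihood, robust, with TMM factors, filterByExpr (minimum count 10, minimum total 15) and Benjamini-Hochberg adjustment at 0.05, and it was tested on simulated data. Alternatives used DESeq2 1.42.0, limma 3.58.1, other scalings and filters, blocks and omitted libraries; a combined correction without vehicle 1 and other exon sets were added after seeing the data. Names, lengths and overlaps came from GENCODE M21 (GRCm38), which left 260 genes without a symbol, and promoters from RefSeq GRCm38.p6. The most alike of the library pairs differed by a chi-square of 5.46 per degree of freedom, so all were kept. Depth was 7447664 to 10161623 counts, so low genes carry more counting error.

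Members and lists were chosen with earlier results of these data known. Values in every library were given for the 2 members of each role with the smallest unadjusted p, the highest and lowest per kilobase in each role, and Ndufv1, Ndufs1, Ndufs4, Ndufa4, Ndufa4l2 and Ndufaf1. Up to 2 genes of each other list were named by smallest p; others were chosen after their values were seen. The values of 1 member are not reported here, though it is in the counts, medians and sums.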

Additional observations from a re-analysis of the deposited data

Results flagged for a closer look

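In 3 cases a library lay apart from the other 3 of its group by Dixon's ratio, among 102 groups of values examined, where chance marks about 1 in 20. Vehicle 2, the library with liver markers, had 1036 CPM of Ndufv1 where the other vehicle libraries had 799 to 836 CPM. Its summed level of proximal membrane arm accessory subunits was 2396 CPM where they had 1990.4 to 2042 CPM. DIZE 2 had 14.6 CPM of Ndufaf8 where the other DIZE libraries had 18.9 to 19.6 CPM. Without vehicle 2, Ndufv1 had a log2 fold change of 0.30, and no member passed.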

How the results depend on the processing

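The count of members past the threshold was 0 under all 20 alternatives, although the number of genes called overall ran from 0 to 606. With a trend on GC content and length removed from each library, the median log2 fold change of subunits was 0.046, with 25 of 38 above 0, and that of assembly factors 0.212; with vehicle 1 also left out the latter was 0.163. Under the first correction Ndufa2 was at 0.003, Ndufa5 at 0.027, Ndufs4 at 0.134, Ndufa1 at 0.076, Ndufa3 at 0.103, Ndufs5 at 0.088 and Ndufa4 at 0.286, and with vehicle 1 also left out Ndufa2 was at 0.014, Ndufs4 at 0.091, Ndufa1 at 0.034, Ndufa3 at 0.027 and Ndufa4 at 0.201, all turned to above 0. With library weights in limma-voom the subunit median was 0, with 19 above and 19 below, the peripheral arm median was -0.031, and Ndufa7 was at 0.011, Ndufs4 at 0.002 and Ndufa4 at 0.021. Leaving out single libraries gave subunit medians from -0.112 to -0.020, with 11 to 16 above 0, and assembly factor medians from 0.025 to 0.117, with 5 to 6 above 0. Without single libraries, Ndufs4 ranged from -0.13 to 0.007 (above 0 without vehicle 1), Ndufa4l2 from -0.287 to 0.011 (above 0 without vehicle 3) and Ndufa4 from -0.084 to 0.034 (above 0 without vehicle 1 and, near 0, without vehicle 2 at 0.002 and DIZE 4 at 0.013). The cause of these shifts was not tested. The numbers in the titles repeat within a group. Deviations from the group means had correlations of -0.14 to 0.02 between same-numbered libraries and -0.21 to 0.14 between the others. With 4 libraries per group, such values cannot settle whether libraries were paired. With that number as a replicate block 14 of 46 members were above 0, the median was -0.128 and Ndufaf6 was at -0.016. The numbers of vehicle 4 and DIZE 3 are not shared with another library, so these libraries added nothing to that contrast. At 60 to 12111 counts per member and library, the intervals of 44 of the 46 excluded a 1.5-fold difference.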

Other observations

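Of the 46 members, 13 (28.3%) have the start of a protein-coding gene on the opposite strand within 1000 bases upstream, against 9.9% of 12461 tested protein-coding genes. The closest pairs are Ndufa7 with Rps28, a ribosomal protein gene, 10 bases apart, and Ndufb9 with Tatdn1, 18 bases apart. Of 12 pairs with a tested neighbor, 8 had log2 fold changes of opposite sign and 4 of the same sign. Ndufaf8 was at -0.27 and its neighbor Tepsin at 0.28, and Ndufa5 was at -0.13 and Asb15 at 0.36. These pairs were named after their values were seen.

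RefSeq lists Ndufb1-ps as the protein-coding gene Ndufb1, so the members may lack a subunit of the complex. Ndufb1-ps is left out of the members because GENCODE M21 annotates it as a noncoding RNA at a bidirectional promoter, although it was well covered. It had 133, 127, 116 and 112 CPM in vehicle and 109, 109.2, 112 and 94.3 CPM in DIZE, and the highest DIZE library lay just under the lowest vehicle library. The log2 fold change was -0.20 ± 0.11 (edgeR adjusted p = 0.318), and 12.4% of tested genes had groups that did not overlap.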
